A study of Mus musculus with 12 samples.

Results

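The genes Vim, Timp1, Lgals1, Lgals3, S100a4, S100a6, S100a10, S100a11, Anxa2 and Anxa6 were followed in RNA-seq of mouse CD4 T cells. They encode an intermediate filament protein, a protease inhibitor, and members of the galectin, S100 and annexin families. They were chosen by family and with their FPKM levels in the 6 groups of these same libraries already known, then matched by symbol, and all 10 were found among the 52635 genes of the deposited table. Their levels and differences are therefore a description, and no p-value is given for them. All 10 were among the 11922 genes tested, which had a level of at least 1 FPKM (fragments per kilobase of transcript, scaled to the reads of the library) in at least 2 libraries. S100a4 passed this filter only through replicate 2 of KO-labelled cells without RA and replicate 2 of WT cells without RA.

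C57BL/6 mice, a standard inbred strain, gave the naive CD4 T cells, whose purity was more than 95% per the labels. They were cultured for 24 h with antibodies to CD3 and CD28, which stimulate the T-cell receptor, in medium with charcoal-stripped serum. Added to all groups were TNFα and TGFβ-1 (each 5 ng/mL), IL-23, IL-21 and IL-1β (each 10 ng/mL) and IL-6 (20 ng/mL), with blocking antibodies against IL-4 and IFNγ (each 10 µg/mL). The groups were RARα TG cells with 10 nM retinoic acid (RA) and without RA, RARα KO cells with 10 nM RA and without RA, and wild-type (WT) cells with 10 nM RA and without RA, with 2 libraries each. RA, which cells make from vitamin A, is the ligand of RARα, a nuclear receptor encoded by Rara. What construct and promoter stand behind the TG label, and what allele behind the KO label, is not given in the sources used here.

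Vimentin is an intermediate filament protein of the cytoplasm, found in lymphocytes and in mesenchymal cells. Galectins bind galactose-containing sugars on cell-surface glycoproteins, annexins bind membranes when calcium is present, and most S100 proteins are small calcium-binding partners of other proteins. S100a10 forms a complex with annexin A2 at membranes. Transcripts of this kind are low in resting naive T cells and higher in activated and memory T cells.

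Libraries held 16289968 to 25534588 reads, as read from the values of low genes, and replicates correlated across genes at 0.981 to 0.987 on the log2 scale. Whether replicates came from separate animals is not in the labels, so tests measure only the spread between these libraries. Rara stood at 126 and 119 FPKM in TG cells with RA and 72.8 and 63.3 FPKM in TG cells without RA. It stood at 16.8 and 17.6 FPKM in KO-labelled cells with RA, against 12.3 and 14.2 FPKM in WT cells with RA. Without RA it stood at 19.5 and 19.3 FPKM in KO-labelled cells, against 16.5 and 18.9 FPKM in WT cells. Rara was thus not lower in the libraries labelled KO, and a deletion outside the counted sequence was not tested. Summed levels of 8 T-cell markers were 979 to 1570 FPKM, led by Trbc2. Those of 8 dendritic and class II markers, led by Cd74, were 23.7 to 32.2 FPKM in replicates 1 and 43.0 to 165 FPKM in replicates 2. Those of 10 monocyte and macrophage markers, led by Lyz2, were 3.77 to 4.88 FPKM in replicates 1 and 6.03 to 19.8 FPKM in replicates 2. Transcripts of the X and Y chromosomes placed all TG replicates 1 as male, all TG replicates 2 as female, all KO-labelled libraries as female and all WT libraries as male. The TG replicates of a group therefore did not come from the same animal, and the spread between them includes a difference in sex.

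In the GENCODE M21 annotation of GRCm38, Vim lies at chr2:13573927-13582826, Lgals1 at chr15:78926725-78930465, Lgals3 at chr14:47367751-47386160 and Anxa2 at chr9:69453620-69491795, all on the forward strand. Anxa6 lies on the reverse strand at chr11:54979108-55033445. The S100 genes lie on the forward strand of chromosome 3, S100a4 at chr3:90603771-90606045, S100a6 at chr3:90612882-90624181, S100a11 at chr3:93520488-93526287 and S100a10 at chr3:93555080-93564643. Timp1, at chrX:20870166-20874735 on the forward strand, lies inside Syn1, the synapsin gene on the reverse strand at chrX:20860511-20921004. The labels name a stranded library kit, but how the counting used strand is not stated there. Syn1 was at 45.0 and 51.3 FPKM in TG cells with RA, against 6.13 and 4.84 FPKM without RA, which is opposite in direction to Timp1. The processed pseudogene copies Lgals1-ps1, Lgals1-ps2 and S100a11-ps were listed at 0 in every library. Reads that a gene shares with such a copy could have been split or dropped by the counting, so the levels of Lgals1 and S100a11 are uncertain to that extent. Gm42674, at chr3:90601904-90605885 on the forward strand, overlaps S100a4 on the same strand and was also listed at 0 in every library. Reads in the overlap could have been dropped by the counting, so the level of S100a4 is uncertain as well.

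Upstream sequence was found for 7 of the 10 genes in the RefSeq promoter table for GRCm38.p6, which left S100a10, Lgals1 and Anxa6. The 250 bases before each start site were searched for the AP-1 motif TGANTCA on both strands, the retinoid receptor half-site AGGTCA on both strands (TGACCT on the reverse), its direct repeat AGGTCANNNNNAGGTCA on both strands, and TATAAA on the forward strand. AP-1 is a factor induced by T-cell activation, and retinoid receptors bind direct repeats of the half-site. The windows shown were chosen because they hold the AP-1 and half-site matches, in capitals, and belong to genes with different responses to RA. Each is on the forward strand and stops before the first base of the gene in GENCODE.
Anxa2 (chr9:69453433-69453619): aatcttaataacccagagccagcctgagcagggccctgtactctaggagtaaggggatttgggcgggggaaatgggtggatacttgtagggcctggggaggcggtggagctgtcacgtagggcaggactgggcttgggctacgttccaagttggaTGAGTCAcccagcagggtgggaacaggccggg
S100a11 (chr3:93520246-93520487): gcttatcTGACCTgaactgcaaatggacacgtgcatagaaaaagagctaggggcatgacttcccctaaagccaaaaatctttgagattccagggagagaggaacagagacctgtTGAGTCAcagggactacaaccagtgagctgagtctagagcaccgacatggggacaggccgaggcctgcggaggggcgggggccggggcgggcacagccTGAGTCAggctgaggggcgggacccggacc
S100a4 (chr3:90603520-90603769): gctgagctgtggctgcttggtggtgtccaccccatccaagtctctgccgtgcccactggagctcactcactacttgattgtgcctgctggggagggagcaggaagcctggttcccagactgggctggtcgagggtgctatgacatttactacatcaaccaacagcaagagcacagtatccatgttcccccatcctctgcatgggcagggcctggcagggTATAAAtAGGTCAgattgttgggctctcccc
Anxa2 held 1 AP-1 match, S100a11 held 2 AP-1 matches and 1 half-site, and S100a4 held a TATAAA and a half-site 1 base apart. TATAAA was also found before the start sites of Vim and Anxa2, in sequence that GENCODE counts to their transcripts and that is not shown. The AP-1 motif was in 2 of the 7 windows and in 6.75% of 32851 promoter windows, the half-site in 2 of 7 and in 14% of windows, TATAAA in 3 of 7 and in 7.59%, and the direct repeat in 0 of 7 and in 0.00913%. Such matches are letters in a window, not sites shown to be bound.

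Vim had the widest fold range of the 10 genes. It was at 3.45 and 3.82 FPKM in TG cells with RA, against 224 and 303 FPKM in TG cells without RA. KO-labelled cells had 12.02 and 15.9 FPKM with RA and 33.6 and 57.3 FPKM without RA. WT cells had 9.50 and 15.3 FPKM with RA and 68.9 and 99.0 FPKM without RA. The 2 TG libraries without RA were the highest of the 12 and the 2 TG libraries with RA the lowest, and libraries with and without RA did not overlap in any genotype. On mean FPKM, Vim was 72.6-fold lower with RA in TG cells, 3.25-fold lower in KO-labelled cells and 6.77-fold lower in WT cells. Among the 11922 genes, its rank by level was 8636 in TG cells with RA and 86 in TG cells without RA. These are bulk samples, in which fewer cells that express a gene and less RNA per cell cannot be told apart.

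Timp1, a secreted inhibitor of matrix metalloproteinases, was the most abundant of the 10 genes in every group by FPKM. TG cells had 73.1 and 89.0 FPKM with RA and 499 and 665 FPKM without RA. KO-labelled cells had 146 and 217 FPKM with RA, against 183 and 266 FPKM without RA. WT cells had 171 and 237 FPKM with RA, against 266 and 324 FPKM without RA. The ranges with and without RA overlapped in KO-labelled cells and were separate in TG and WT cells. Its rank by level was 527 in TG cells with RA and 24 in TG cells without RA.

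**Figure D1:**
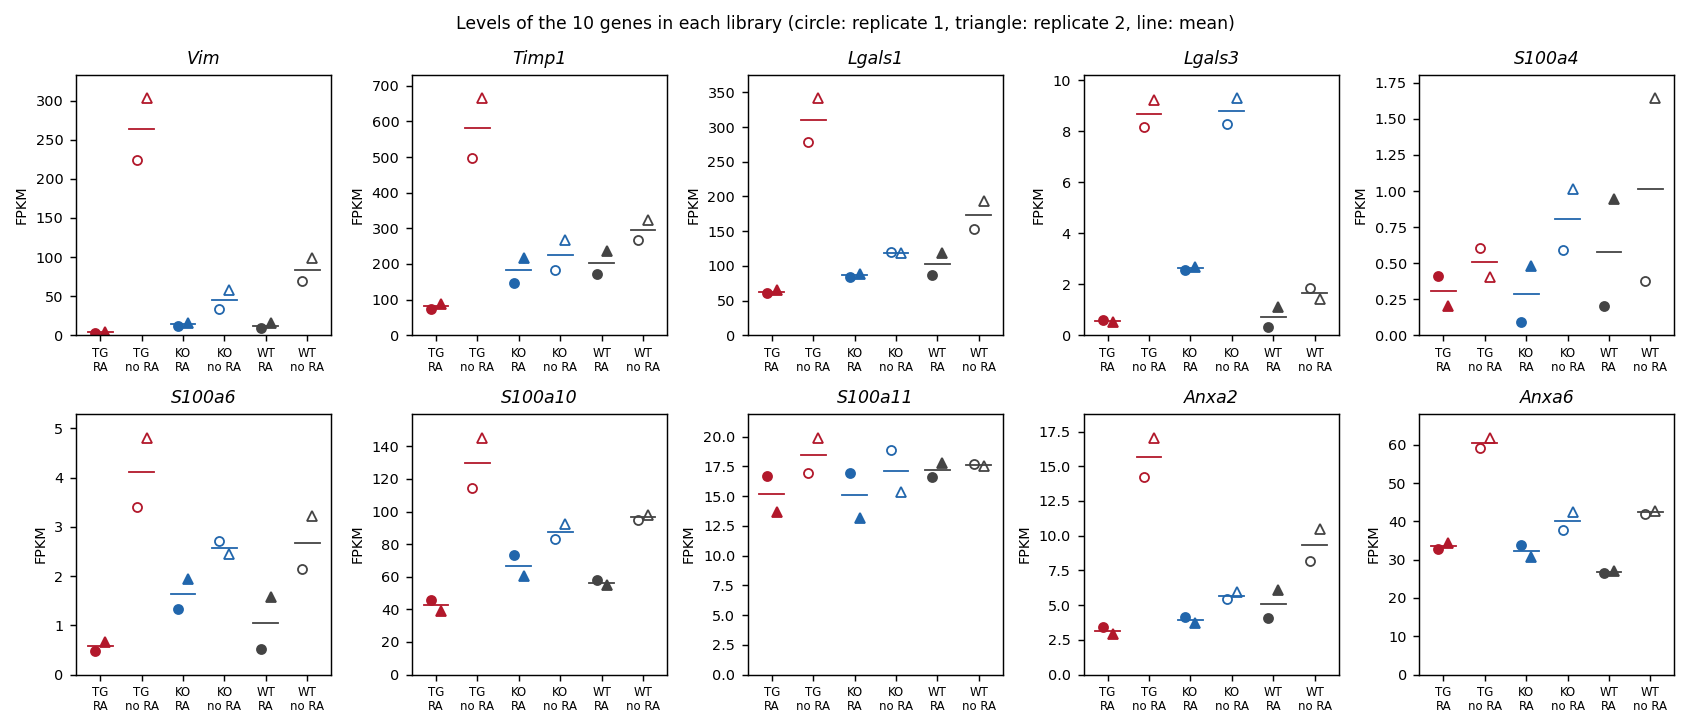
Level of each of the 10 genes in FPKM (vertical axes, linear and starting at 0) in the 6 groups, with filled markers for RA and open markers for no RA, circles for replicate 1, triangles for replicate 2 and a line for the mean. In 8 of the panels the TG libraries with RA lie below the TG libraries without RA by more than the replicates differ, while S100a11 stays between 13.2 and 19.9 FPKM and S100a4 does not pass 1.64 FPKM.

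The galectins differed in their order across genotypes. Lgals1, which encodes galectin-1, a secreted lectin that can act on T cells through surface glycans, was at 61.3 and 64.8 FPKM in TG cells with RA, against 278 and 342 FPKM without RA. KO-labelled cells had 83.7 and 88.9 FPKM with RA and 119.8 and 118 FPKM without RA. WT cells had 87.1 and 119 FPKM with RA and 153 and 194 FPKM without RA. Lgals1 thus had the group order of Timp1, with TG without RA at the top and TG with RA at the bottom. Lgals3, which encodes galectin-3, a lectin found in the cytoplasm, the nucleus and outside cells, was at 0.609 and 0.508 FPKM in TG cells with RA, against 8.15 and 9.21 FPKM without RA. In KO-labelled cells it had 2.56 and 2.69 FPKM with RA, against 8.27 and 9.30 FPKM without RA. WT cells had 0.317 and 1.12 FPKM with RA and 1.86 and 1.43 FPKM without RA. KO-labelled cells without RA and TG cells without RA overlapped at the top of its order, and both stood above WT cells without RA. The WT library with RA at 0.317 FPKM corresponds to 10 reads, with an exact 95% counting interval of 4.80 to 18.4 reads.

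Of the S100 genes, S100a10 was the highest by FPKM and S100a4 the lowest. S100a10, the partner of annexin A2, was at 45.8 and 39.1 FPKM in TG cells with RA, against 114 and 145 FPKM without RA. KO-labelled cells had 73.3 and 60.5 FPKM with RA, against 83.0 and 92.1 FPKM without RA. WT cells had 57.9 and 54.7 FPKM with RA, against 95.1 and 98.0 FPKM without RA. No neighbouring groups overlapped in its order, which ran from TG, WT and KO-labelled cells without RA to KO-labelled, WT and TG cells with RA. S100a6, also called calcyclin, was at 0.479 and 0.662 FPKM in TG cells with RA, against 3.41 and 4.81 FPKM without RA. KO-labelled cells had 1.34 and 1.93 FPKM with RA, against 2.71 and 2.45 FPKM without RA. WT cells had 0.517 and 1.57 FPKM with RA, against 2.14 and 3.22 FPKM without RA. S100a6 was lower with RA in all 3 genotypes without overlap, at levels that rest on 11 to 168 reads per library. S100a11, an S100 protein of many cell types, stayed between 13.2 and 19.9 FPKM in all libraries, at 16.7 and 13.7 FPKM in TG cells with RA, against 17.0 and 19.9 FPKM without RA. Every neighbouring pair of groups overlapped in the orders of S100a11 and S100a4. S100a4, a marker of memory T cells and of motile cells, was at 0.408 and 0.202 FPKM in TG cells with RA, against 0.607 and 0.402 FPKM without RA. It had 0.0949 and 0.481 FPKM in KO-labelled cells with RA, against 0.594 and 1.02 FPKM without RA, and 0.202 and 0.946 FPKM in WT cells with RA, against 0.379 and 1.64 FPKM without RA. These S100a4 values rest on 1 to 17 reads per library, with exact 95% counting intervals of 0.0253 to 5.57 reads for the lowest and 9.90 to 27.2 reads for the highest. The intervals do not cover reads that may have been dropped where Gm42674 overlaps S100a4.

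The annexins Anxa2 and Anxa6 both stood highest in TG cells without RA, and differed at the low end of their order. Anxa2, the partner of S100a10, was at 3.40 and 2.93 FPKM in TG cells with RA, against 14.2 and 17.1 FPKM without RA. KO-labelled cells had 4.13 and 3.73 FPKM with RA, against 5.44 and 5.95 FPKM without RA. WT cells had 4.11 and 6.05 FPKM with RA, against 8.18 and 10.5 FPKM without RA. Its lowest group was TG with RA, as for S100a10. Anxa6, a large annexin found at the plasma membrane and endosomes, was at 32.8 and 34.5 FPKM in TG cells with RA, against 59.1 and 61.9 FPKM without RA. KO-labelled cells had 33.7 and 30.8 FPKM with RA, against 37.6 and 42.4 FPKM without RA. WT cells had 26.5 and 26.9 FPKM with RA, against 41.8 and 42.8 FPKM without RA. The lowest group of Anxa6 was therefore WT with RA, below TG with RA without overlap.

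Each gene was compared with limma on log2(FPKM + 1), fitted on all 11922 genes, and called where its p-value, adjusted by Benjamini-Hochberg over all of them, was under 0.05. With RA in TG cells all 10 differences were below 0 and 8 genes were called lower. The differences ranged over −5.82 ± 0.31 for Vim, −2.82 ± 0.26 for Timp1, −2.63 ± 0.20 for Lgals3, −2.27 ± 0.16 for Lgals1, −1.99 ± 0.17 for Anxa2, −1.69 ± 0.26 for S100a6, −1.58 ± 0.13 for S100a10 and −0.83 ± 0.07 for Anxa6 (log2 ± SE, 2 libraries a group). S100a11 at −0.27 ± 0.14 and S100a4 at −0.21 ± 0.34 were not called. Of all genes tested 39.1% were called in this comparison, and 19.4% of all were called lower. All 8 were called lower again without each of the 4 TG libraries in turn. The median of the 10 differences was −1.84, against −0.02 over all genes tested. Because the genes were listed with these results known, nothing is read from that count.

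With RA in WT cells all 10 differences were again below 0 and 5 genes were called lower, where 10.1% of all genes were called and 3.47% were called lower. They were Vim at −2.68 ± 0.31, Anxa2 at −0.77 ± 0.17, S100a10 at −0.77 ± 0.13, Lgals1 at −0.75 ± 0.16 and Anxa6 at −0.64 ± 0.07. Timp1 at −0.54 ± 0.26, Lgals3 at −0.66 ± 0.20 and S100a6 at −0.88 ± 0.26 were not called. The count was 2 without replicate 2 of WT without RA, which left Vim and Anxa6, and 3 without replicate 1 of WT with RA, which left S100a10 as well. It was 5 without replicate 1 of WT without RA and 7 without replicate 2 of WT with RA. The median of the 10 was −0.70, against 0.02 over all genes.

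With RA in KO-labelled cells all 10 differences were below 0 and only Lgals3 was called, at −1.43 ± 0.20. Few genes were called in this comparison, 0.143% of all, and Lgals3 was the only gene of the table called lower, which is 0.00839%. Leaving out any 1 of the 4 KO-labelled libraries ended that call, with differences between −1.50 and −1.35. Vim had a difference of −1.60 ± 0.31 and was not called. The others lay between −0.49 for S100a4 and −0.18 for S100a11, and the median of the 10 was −0.44, against 0.01 over all genes. In 8 of the 10 genes the KO-labelled libraries with RA lay below those without RA with no overlap, where 18.2% of all genes did. The same count was 9 in TG cells, where 37.6% of all genes did, and 8 in WT cells, where 22.8% did. S100a4 was among the 8 in KO-labelled cells and was not in the counts of TG and WT cells. It passed the filter only through libraries without RA, which favours a lower level with RA, so its place there is no result.

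**Figure D2:**
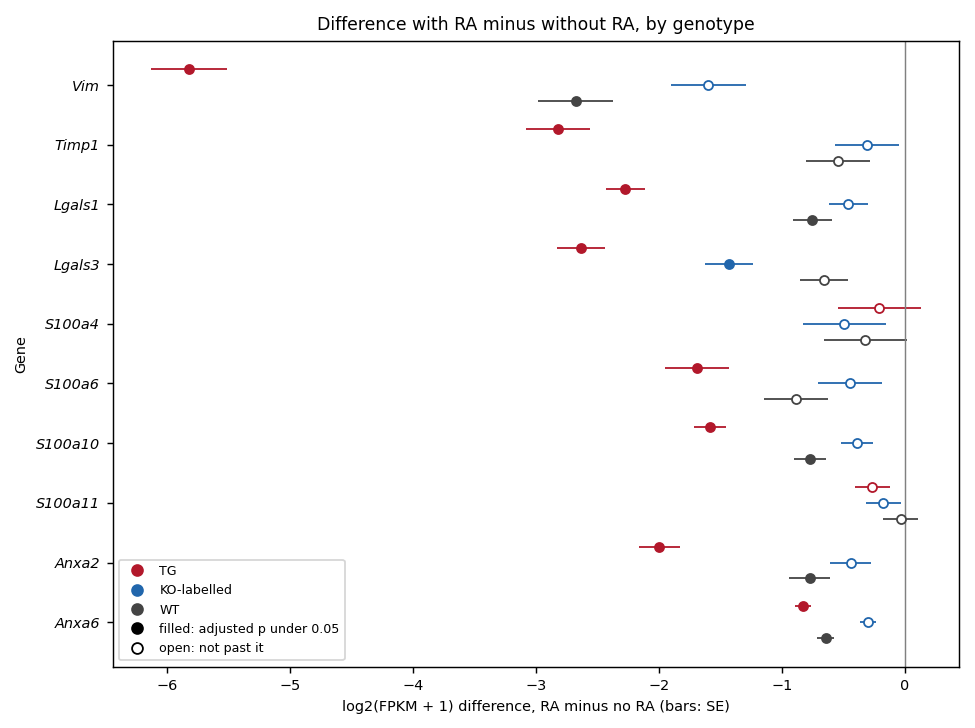
Difference with RA minus without RA on the log2(FPKM + 1) scale (horizontal axis) for each of the 10 genes (rows) in TG, KO-labelled and WT cells. Points are fitted differences, bars are SE, and filled points passed an adjusted p of 0.05. All points lie below 0, and the TG point is the farthest from 0 for every gene except S100a4.

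The RA difference in TG cells was then set against that in WT cells as an interaction term. TG minus WT, it was −3.15 ± 0.43 for Vim, −2.28 ± 0.37 for Timp1, −1.98 ± 0.28 for Lgals3, −1.52 ± 0.23 for Lgals1, −1.22 ± 0.23 for Anxa2 and −0.82 ± 0.19 for S100a10 (log2 ± SE). These 6 genes were called lower, where 7.48% of all genes were called and 2.73% were called lower. S100a6 at −0.81 ± 0.37, S100a11 at −0.23 ± 0.20, Anxa6 at −0.18 ± 0.09 and S100a4 at 0.11 ± 0.48 were not called. The calls of Vim, Timp1, Lgals1 and Lgals3 were made again without each of the 8 TG and WT libraries in turn. The call of Anxa2 was lost without replicate 1 of WT without RA, replicate 2 of TG without RA or replicate 2 of TG with RA. S100a10 was called again only without replicate 1 of TG without RA. For KO-labelled against WT cells, 0 of the 10 genes were called and 0.00839% of all genes were, with 640 genes at an unadjusted p under 0.05, and voom on recovered reads also called 0 of the 10. KO-labelled minus WT, the term was 1.08 ± 0.43 for Vim and −0.77 ± 0.28 for Lgals3. A missing call does not show that the 2 genotypes responded alike.

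Without RA, TG cells stood above WT cells for 9 of the 10 genes on the log2 scale, and 4 were called higher, where 4.31% of all genes were called and 2.25% were called higher. Vim averaged 264 ± 55.7 FPKM in TG cells and 84.0 ± 21.3 FPKM in WT cells (SD, n = 2 each), a difference of 1.65 ± 0.31. Lgals3 averaged 8.68 ± 0.75 FPKM in TG cells and 1.64 ± 0.31 FPKM in WT cells, a difference of 1.88 ± 0.20. The other called genes were Lgals1 at 0.84 ± 0.16 and Anxa6 at 0.50 ± 0.07, while Timp1 at 0.97 ± 0.26, Anxa2 at 0.69 ± 0.17, S100a6 at 0.48 ± 0.26 and S100a10 at 0.41 ± 0.13 were not called. Lgals3 was called without each library in turn and Anxa6 without each but replicate 2 of TG without RA. The calls of Vim and Lgals1 were lost whichever of the 4 libraries was left out. Replicate 2 of TG was female and the WT libraries were male, and without it the differences were 1.43 for Vim, 0.69 for Lgals1, 0.47 for Anxa6 and 1.80 for Lgals3.

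With RA, 9 of the 10 differences of TG minus WT were below 0. Vim was at 3.63 ± 0.26 FPKM in TG cells and 12.4 ± 4.11 FPKM in WT cells, a difference of −1.50 ± 0.31. Timp1 was at 81.1 ± 11.2 FPKM in TG cells and 204 ± 46.5 FPKM in WT cells, a difference of −1.31 ± 0.26. Replicate 2 of TG with RA was female and the WT libraries were male, and the part of sex in the X-linked Timp1 was not tested. Lgals1 differed by −0.68 ± 0.16 and these 3 genes were called lower, while Anxa6 was called higher at 0.32 ± 0.07. Of all genes tested 11.5% were called in this comparison, 4.64% of all lower and 6.84% of all higher. Replicate 2 of WT with RA, replicate 1 of TG with RA and replicate 2 of TG with RA each decided these calls, since 0 of the 10 genes were called without any one of them. Without replicate 1 of WT with RA, 4 genes were called lower, namely Vim, Timp1, Lgals1 and Anxa2, and Anxa6 was not called. Vim, Timp1, Lgals1, S100a10 and Anxa2 were higher in TG than in WT cells without RA and lower with RA, without overlap of the libraries at either dose. The share of all genes that did so was not counted, so nothing is read from their number. Their interactions above are called on the difference of these same comparisons, so those calls are no separate result. Of these 5 genes, only Vim and Lgals1 were called at both doses, and Timp1 was called with RA alone. S100a10 at −0.40 and Anxa2 at −0.53 with RA were called at neither dose. Anxa6 was higher in TG cells at both doses.

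Libraries labelled KO and WT libraries differed in sex at both doses, so genotype and sex cannot be told apart in this comparison, which bears in particular on the X-linked Timp1. Lgals3 was the only one of the 10 genes called at either dose. Without RA it averaged 8.78 ± 0.72 FPKM in KO-labelled cells and 1.64 ± 0.31 FPKM in WT cells, which is 5.34-fold higher on mean FPKM and 1.89 ± 0.20 on the log2 scale. That call was made again without each of the 4 libraries in turn, in a comparison where 1.74% of all genes were called and 1.16% were called higher. With RA it averaged 2.63 ± 0.09 FPKM in KO-labelled cells and 0.720 ± 0.57 FPKM in WT cells, a difference of 1.12 ± 0.20, where 0.881% of all genes were called and 0.47% were called higher. This second call was lost without replicate 1 of WT with RA or either KO-labelled library with RA, with differences down to 0.77. The other 9 genes had negative differences without RA, from −0.90 ± 0.31 for Vim to −0.03 ± 0.26 for S100a6. With RA they lay between −0.28 for Anxa2 and 0.41 for S100a6.

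**Figure D3:**
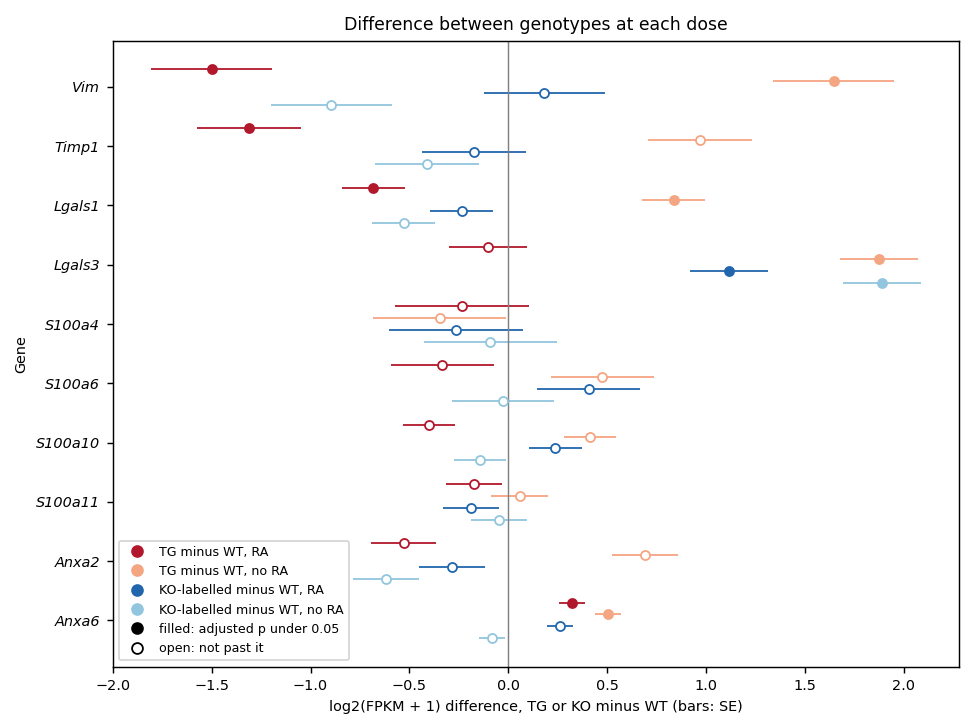
Difference between genotypes on the log2(FPKM + 1) scale (horizontal axis) for each of the 10 genes (rows), as TG minus WT with and without RA and KO-labelled minus WT with and without RA. Points are fitted differences, bars are SE and filled points passed an adjusted p of 0.05. Vim, Timp1, Lgals1, S100a10 and Anxa2 lie below 0 for TG minus WT with RA and above 0 without RA, Anxa6 lies above 0 in both, and Lgals3 lies above 0 in both KO-labelled comparisons.

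Replicate 2, which had more dendritic and monocyte marker transcripts, was above replicate 1 in 6 of 6 groups for Vim and Timp1, and in 5 of 6 for Lgals1, S100a6 and Anxa6. It was higher in 4 of 6 groups for Lgals3, S100a4 and Anxa2, in 3 for S100a10 and in 2 for S100a11. Within replicate 1, Vim was at 3.45 FPKM in TG cells with RA, against 224 FPKM without RA, and within replicate 2 at 3.82 FPKM against 303 FPKM. Dendritic and class II marker sums were 32.2 and 43.0 FPKM in TG cells with RA, against 27.5 and 43.7 FPKM in TG cells without RA. Monocyte and macrophage sums were 4.07 and 6.03 FPKM in TG cells with RA, against 3.77 and 6.12 FPKM without RA, with Itgam listed at 0 in all 12 libraries. B-cell marker sums, led by Ighm, were 109 and 107 FPKM in TG cells with RA, against 31.2 and 33.6 FPKM without RA. Lgals3 was called, among other comparisons, for KO-labelled against WT cells without RA. There, monocyte and macrophage sums were 4.88 and 17.9 FPKM in KO-labelled cells, against 3.99 and 15.9 FPKM in WT cells. Dendritic and class II sums were 26.5 and 73.2 FPKM, against 23.7 and 157 FPKM in WT cells. B-cell sums were 30.7 and 51.9 FPKM, against 29.2 and 99.9 FPKM in WT cells. Sums of 7 fibroblast markers, cells that also express Vim, Timp1 and S100a4, were 0.505 and 0.574 FPKM in TG cells with RA, against 1.18 and 0.798 FPKM without RA, with Col1a2, Col3a1 and Pdgfra at 0 in these libraries. Sums of 8 neutrophil markers, led by Ly6g, were 0.0869 and 0.0515 FPKM in TG cells with RA, against 1.93 and 1.22 FPKM without RA, with Ly6g at 0 in both TG libraries with RA and S100a8, S100a9, Camp, Ngp and Ltf at 0 in all 4. The neutrophil sums were 0.771 and 0.867 FPKM in KO-labelled cells with RA, against 1.04 and 1.23 FPKM without RA, and 0.160 and 1.11 FPKM in WT cells with RA, against 0.813 and 0.590 FPKM without RA. They were thus lower with RA without overlap in TG and KO-labelled cells and overlapped in WT cells. Sums of 3 NK-cell markers, led by Gzma, were 0.769 and 1.14 FPKM in TG cells with RA, against 0.151 and 0.505 FPKM without RA. In WT cells the NK sums differed between replicates 1 and 2, at 1.15 and 11.95 FPKM with RA, against 0.676 and 9.06 FPKM without RA. In KO-labelled cells without RA they were 2.53 and 2.70 FPKM. The part of these cell types in the levels of the 10 genes was not tested.

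The families and partners of the 10 genes were taken as 8 lists by function, not by how they moved, although earlier results were known, and 66 of their 106 genes were tested. For comparison with their counts, RA raised 19.7% and lowered 19.4% of all tested genes in TG cells, and raised 6.67% and lowered 3.47% in WT cells. Of the 66, Lmna, Gcnt1 and Plaur reached 1 FPKM only in libraries without RA, so their RA differences are given without a test. With RA in TG cells the other galectins all rose, which were 5 of 5 tested out of 8 listed. Apart from Lgals9 they were low in TG cells. Their means ran from 1.31 FPKM for Lgals7 to 4.77 FPKM for Lgals8 with RA, and from 0.639 to 2.09 FPKM for the same genes without RA. Lgals9, a galectin that binds Tim-3 on T cells, averaged 47.6 FPKM in TG cells with RA and 30.0 FPKM without RA, a difference of 0.64 ± 0.08 (limma adjusted p = 0.000329). Lgals8 rose by 0.90 ± 0.11 (limma adjusted p = 0.000296) and Lgalsl by 0.55 ± 0.11 (limma adjusted p = 0.00492). Lgals7 rose by 0.49 ± 0.13 (limma adjusted p = 0.0153), a call lost without either TG library without RA or replicate 1 of TG with RA. Lgals4 rose by 0.34 ± 0.10 (limma adjusted p = 0.0298), a call lost without any of the 4 TG libraries. The list's median difference was 0.55, against −0.02 over all genes. Lgals1 and Lgals3 had the opposite sign to the other galectins tested. They were listed with their levels in these libraries known, so nothing is read from that contrast. In WT cells 3 of the 5 rose, namely Lgals8 at 0.57 ± 0.11, Lgals7 at 0.56 ± 0.13 and Lgals9 at 0.34 ± 0.08 (limma adjusted p = 0.0147, 0.0286 and 0.0297). Each of these WT calls was lost in at least 3 of the 4 fits that left out 1 WT library.

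The other annexins also had mostly positive differences. With RA in TG cells 4 of 5 tested rose, out of 10 listed, where 19.7% of all genes did. Anxa5, which binds phosphatidylserine, was at 66.8 and 60.7 FPKM in TG cells with RA, against 42.7 and 39.1 FPKM without RA, a rise of 0.63 ± 0.10 (limma adjusted p = 0.00139). Anxa3 rose by 1.39 ± 0.28 (limma adjusted p = 0.0045), Anxa11 by 0.41 ± 0.07 (limma adjusted p = 0.00168) and Anxa7 by 0.26 ± 0.06 (limma adjusted p = 0.00687), the last not without replicate 1 of TG with RA. Anxa4 differed by −0.18 ± 0.11 and did not pass. Anxa1 was at most 0.471 FPKM in any library and was not tested. In WT cells Anxa5 at 0.46 ± 0.10 and Anxa11 at 0.30 ± 0.07 passed (limma adjusted p = 0.0247 and 0.0269), and both calls were lost in 3 of the 4 fits that left out 1 WT library. Of the other S100 genes only S100a13 and S100a1 of 12 were tested, and 0 passed in limma in any comparison, also 0 at an unadjusted p under 0.05 or with voom. S100a13 was at 32.6 and 25.4 FPKM in TG cells with RA, against 32.1 and 36.6 FPKM without RA.

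**Figure D4:**
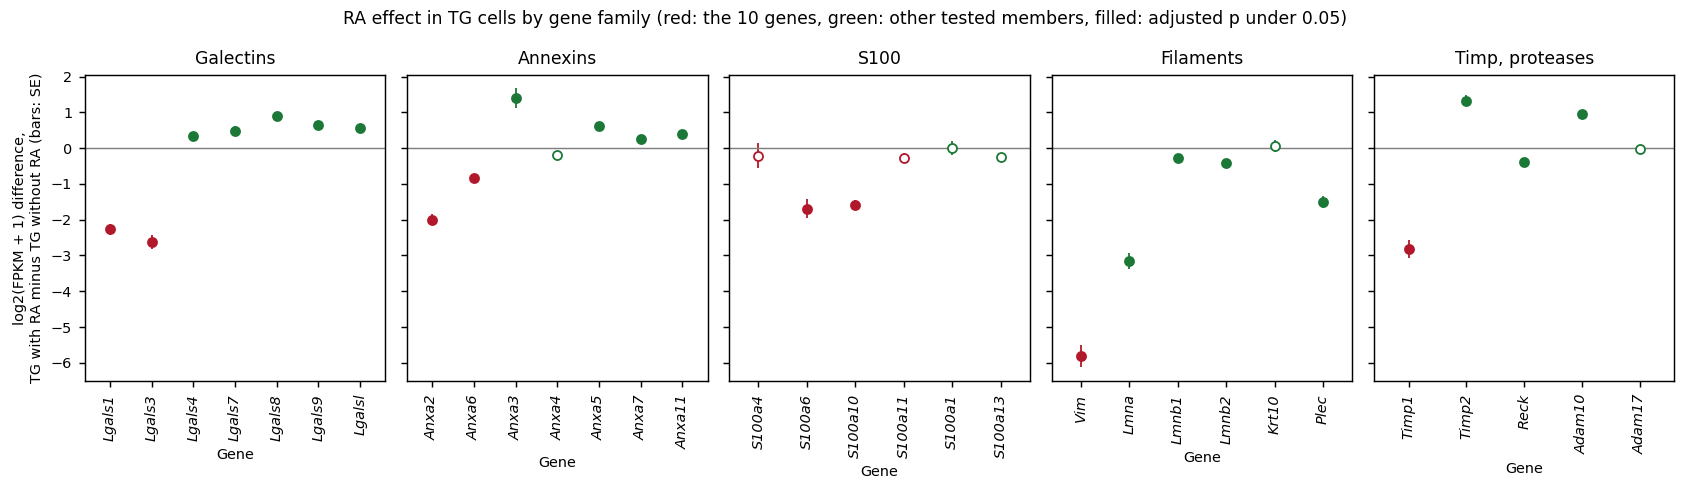
Difference with RA minus without RA in TG cells on the log2(FPKM + 1) scale (vertical axis) by family, with the 10 genes in red, other tested family members in green, SE as bars and filled points past an adjusted p of 0.05. Lgals1, Lgals3, Anxa2 and Anxa6 lie below 0 while all other tested galectins and 4 of the 5 other annexins lie above 0. The genes in red were listed with their levels known, so nothing is read from that contrast. Lmna reached 1 FPKM only in libraries without RA.

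Among the other intermediate filament genes and plectin, 5 of 14 listed were tested, and with RA in TG cells 3 fell besides Lmna, where 19.4% of all genes did. Lmna, which encodes the A-type lamins of the nuclear envelope, was at 0.194 and 0.249 FPKM in TG cells with RA, against 7.61 and 12.7 FPKM without RA, a difference of −3.15 on the log2 scale. In WT cells it was at 0.242 and 0.347 FPKM with RA, against 2.14 and 3.24 FPKM without RA, a difference of −1.50, and the libraries did not overlap in either genotype. Plec, a linker of intermediate filaments to other parts of the cytoskeleton, also fell in TG cells, with a difference of −1.50 ± 0.16 (limma adjusted p = 0.000169). The B-type lamins Lmnb2 at −0.43 ± 0.07 and Lmnb1 at −0.27 ± 0.07 also fell in TG cells (limma adjusted p = 0.00137 and 0.0141), and Lmnb1 did not without replicate 2 of TG without RA or replicate 1 of TG with RA. Krt10 did not pass. The B-type lamins and plectin that fell are not cytoplasmic filament proteins of the vimentin type, of which Des, Gfap and Prph were listed and not tested.

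For the list of other Timp genes and metalloproteinases, 4 of 14 were tested, and with RA in TG cells 2 rose and 1 fell. With RA in TG cells Timp2, also a metalloproteinase inhibitor, was at 32.1 and 34.8 FPKM, against 13.9 and 11.7 FPKM without RA, a rise of 1.33 ± 0.15 (limma adjusted p = 0.000235). In WT cells Timp2 was at 30.6 and 27.0 FPKM with RA, against 15.5 and 12.1 FPKM without RA, a rise of 1.01 ± 0.15 (limma adjusted p = 0.00547). Adam10, a membrane protease that releases surface proteins, rose by 0.95 ± 0.06 in TG cells (limma adjusted p = 4.84e-06) and by 0.39 ± 0.06 in WT cells (limma adjusted p = 0.00464). Reck, a membrane-anchored inhibitor of metalloproteinases, fell by 0.38 ± 0.09 in TG cells (limma adjusted p = 0.0116), not without replicate 2 of TG without RA or replicate 1 of TG with RA. Adam17 did not pass. Cd63, the cell-surface partner of Timp1, was below 1 FPKM in every library and was not tested.

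Of 8 listed partners of S100 and annexin proteins 6 were tested, and with RA in TG cells 2 fell and 1 rose, which is 50% called, against 39.1% of all genes. Ahnak, a very large protein that binds the complex of S100a10 and annexin A2, was at 2.05 and 2.84 FPKM in TG cells with RA, against 15.0 and 9.98 FPKM without RA, a difference of −1.96 ± 0.18 (limma adjusted p = 7.6e-05). In WT cells it fell by 1.01 ± 0.18 (limma adjusted p = 0.0129), a call that remained only without replicate 2 of WT with RA. Cacybp, which binds S100a6, fell by 0.27 ± 0.05 in TG cells (limma adjusted p = 0.00372). Myh9, a non-muscle myosin that S100a4 binds, rose by 0.76 ± 0.12 in TG cells (limma adjusted p = 0.00146). Plau, the urokinase protease, was not called for RA in TG cells at 0.32 ± 0.17.

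Among 10 genes for galectin ligands and the enzymes that build their glycans, all were tested and with RA in TG cells 5 rose and Mgat1 fell besides Gcnt1, where 39.1% of all genes were called. Mgat5, an enzyme that makes branched N-glycans to which galectin-3 binds, was at 13.8 and 14.7 FPKM in TG cells with RA, against 3.08 and 2.91 FPKM without RA, a rise of 1.93 ± 0.14 (limma adjusted p = 1.87e-05). Mgat4a, another branching enzyme, averaged 13.3 FPKM in TG cells with RA and 2.61 FPKM without RA, a rise of 1.98 ± 0.08 (limma adjusted p = 5.96e-07). In WT cells Mgat4a was at 2.70 and 2.85 FPKM with RA, against 2.24 and 2.60 FPKM without RA, and was not called. Spn, the sialoglycoprotein CD43, rose by 1.22 ± 0.08 in TG cells (limma adjusted p = 1.33e-05) and by 0.63 ± 0.08 in WT cells (limma adjusted p = 0.00319). Lgals3bp, a secreted glycoprotein that binds galectin-3, rose by 1.30 ± 0.10 in TG cells (limma adjusted p = 2.87e-05) and by 0.75 ± 0.10 in WT cells (limma adjusted p = 0.00374). Gcnt1, an O-glycan branching enzyme, was at 0.759 and 0.819 FPKM in TG cells with RA, against 4.05 and 4.80 FPKM without RA. In WT cells it was at 0.423 and 0.529 FPKM with RA, against 1.74 and 2.96 FPKM without RA, and its libraries with RA lay below those without RA in both genotypes.

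Of 29 tested actin and microtubule genes, 7 rose and 3 fell with RA in TG cells and 19 did not pass. The share called was 34.5%, near the 39.1% of all genes, so the count is no result about the list, whose median difference was 0.07, against −0.02 over all genes. Tmsb4x, which encodes the actin-binding thymosin β-4, rose by 1.95 ± 0.09 (limma adjusted p = 1.14e-06), Tubb6, a β-tubulin, by 2.18 ± 0.21 (limma adjusted p = 7.89e-05) and Cnn3, an actin-binding calponin, by 1.01 ± 0.05 (limma adjusted p = 2.09e-06). Tuba1a, an α-tubulin, fell by 0.78 ± 0.07 (limma adjusted p = 4.94e-05). In WT cells 5 rose, 1 fell and 23 did not pass, among them Tmsb4x at 0.81 ± 0.09 and Tuba1a at −0.49 ± 0.07 (limma adjusted p = 0.00117 and 0.00393). In KO-labelled cells 0 of the 66 tested genes of the 8 lists were called for RA by limma, 19 had an unadjusted p under 0.05 and voom called 0, in a comparison where 0.143% of all genes were called.

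The same 66 genes were also compared between genotypes. TG against WT cells without RA, limma called 6 and voom 10, where 4.31% of all genes were called by limma. Among the 6 were Lmna, higher by 1.57 ± 0.22 (limma adjusted p = 0.008), and Ahnak, higher by 1.33 ± 0.18 (limma adjusted p = 0.00761), which were both not called without replicate 1 of WT without RA. Tmsb4x averaged 383 FPKM in TG cells and 627 FPKM in WT cells without RA, a difference of −0.71 ± 0.09 (limma adjusted p = 0.00403). Mgat5, an N-glycan-branching enzyme, was at −0.79 ± 0.14 (limma adjusted p = 0.0212), a call lost in 3 of the 4 fits that left out 1 library. With RA 13 were called, where 11.5% of all genes were, among them Mgat4a at 13.3 FPKM in TG cells and 2.78 FPKM in WT cells, a difference of 1.92 ± 0.08 (limma adjusted p = 4.55e-06), Cnn3 at 0.63 ± 0.05 (limma adjusted p = 0.00017), Lgals3bp at 0.89 ± 0.10 (limma adjusted p = 0.00093) and Adam10 at 0.36 ± 0.06 (limma adjusted p = 0.00442). KO-labelled against WT cells, 4 were called without RA, where 1.74% of all genes were, namely Tmsb4x at 0.55 ± 0.09, Coro1a at 0.31 ± 0.06, Cnn3 at −0.26 ± 0.05 and Tuba1a at −0.38 ± 0.07, and 1 with RA, where 0.881% of all genes were, Cnn3 at −0.36 ± 0.05. Each of these KO-labelled calls was lost in at least 3 of the 4 fits that left out 1 library. Genotype and sex cannot be told apart in them, as for the 10 genes above.

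Across the 12 libraries, the tested genes whose log2(FPKM + 1) most resembled that of Vim by Pearson r were Atp6v0a1 at 0.990, Gfm1 at 0.988, Mthfd1l at 0.988, Mov10 at 0.985 and Prdx4 at 0.985. Atp6v0a1, a subunit of the vacuolar proton pump, averaged 2.46 FPKM in TG cells with RA and 11.3 FPKM in TG cells without RA. Pearson r does not measure the size of a change. With and without RA in TG cells, Gfm1 averaged 28.3 and 37.9 FPKM and Mthfd1l 37.8 and 54.5 FPKM. Mov10 averaged 3.76 and 29.3 FPKM, and Prdx4 12.4 and 32.0 FPKM. Those most opposite were Cotl1 at −0.993, Trim8 at −0.992 and Tgfbr2 at −0.990. Trim8, a ubiquitin ligase of the TRIM family, averaged 40.4 FPKM in TG cells with RA and 10.2 FPKM in TG cells without RA. Among the 10 genes, r to Vim was 0.971 for Lgals1, 0.965 for S100a10, 0.956 for Anxa2, 0.951 for Timp1, 0.938 for S100a6 and 0.861 for Anxa6. It was 0.737 for Lgals3, 0.525 for S100a11 and 0.431 for S100a4. Libraries with and without RA fall apart on Vim, the points share genotype and dose, and these values describe these 12 libraries only.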

How the data were processed

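RNA of 12 libraries was sequenced in single reads of 100 bp from a stranded kit, per the labels' protocols. The deposited values are FPKM per gene, made by the authors, in 1 table of 52635 genes. Per the submitters' processing notes the tools were DESeq2, HTSeq 0.6.1, STAR and Trimmomatic 0.32, with the builds GRCm38.p5 and mm10 and no role for each. Genes were matched by symbol, and 52488 identifiers had an entry in GENCODE M21.

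Genes at 1 FPKM or more in at least 2 libraries (11922) were fitted with limma 3.58.1 in R 4.3.3, with a trend, on log2(FPKM + 1), as 6 group means with 6 residual and 2.51 prior degrees of freedom. In all, 9 comparisons were made, with two-sided p-values adjusted by Benjamini-Hochberg within each at 0.05. The scale understates the change of low genes. The members, lists and alternatives were chosen with earlier results of these data known. Genes named were all members and up to 4 genes of each list with the smallest p in each comparison described, with others said to be chosen after their values were seen. Lgals4, Gcnt1, Mgat1, Anxa1, Anxa4, S100a13 in TG, Cd63 and the untested filament genes were added to these after their values were seen. Reads per library were recovered from FPKM, exon length and depth: of values up to 20 reads, 95.3 to 95.93% were whole to within 0.02 reads. Counting intervals cover counting error only. The code was tested on simulated data. Python 3.11.15 with pandas 2.3.3 and matplotlib 3.10.9 served for tables and figures.

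Alternatives were a pseudocount of 0.1, no filter, upper-quartile scaling, voom on recovered reads (11910 genes), the libraries compared alone, a block for the replicate number, and each library left out in turn.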

Additional observations from a re-analysis of the deposited data

Results flagged for a closer look

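The genes below, apart from Lmna, had an effect of RA in TG cells that differed from that in WT cells. The test was limma's interaction term, adjusted over all 11922 genes. Among the 10 genes described, whose choice was made with results known, the difference of TG minus WT was −3.15 for Vim, −2.28 for Timp1, −1.98 for Lgals3, −1.52 for Lgals1, −1.22 for Anxa2 and −0.82 for S100a10 (log2).

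Of the related genes, the RA effect was lower in TG than in WT cells for Plec at −0.99 (limma adjusted p = 0.037), Reck at −0.56 (limma adjusted p = 0.0393) and Lmnb2 at −0.38 (limma adjusted p = 0.0478). It was higher for Mgat4a at 1.84 (limma adjusted p = 6.43e-05), Mgat5 at 1.48 (limma adjusted p = 0.00357), Tmsb4x at 1.13 (limma adjusted p = 0.00107), Cnn3 at 0.78 (limma adjusted p = 0.000506), Spn at 0.58 (limma adjusted p = 0.022) and Adam10 at 0.57 (limma adjusted p = 0.00422). The calls of Reck and Lmnb2 were lost whichever of the 8 libraries was left out, and those of Plec and Spn in 6 of these 8 fits. Lmna reached 1 FPKM only in libraries without RA, so its difference of −1.66 is given without a test. Without 1 library it ranged from −1.99 to −1.32.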

How the results depend on the processing

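Of 980 differences of the 10 genes under the alternatives, 886 stayed on their side of the threshold with the same sign or one that changed within 1 SE, 69 lost a call, 13 gained one and 12 changed sign by more. Upper-quartile scaling changed 0 of 90. For the related genes called in the main fit, 713 of 930 differences under the alternatives kept their call and 217 lost it. Counts of called genes among the 10 moved as follows, and the cause was not tested. For RA in WT the count was 3 without a filter and 2 with only the libraries compared. For RA in KO-labelled cells it was 0 with a pseudocount of 0.1, without a filter, and with only the libraries compared. For KO-labelled against WT with RA it was 0 under those 3 settings and with voom. For TG against WT without RA it was 2 without a filter, 1 with only the libraries compared and 6 with voom, which added Timp1 and Anxa2, and with RA it was 0 with only the libraries compared and 3 without a filter. For the interaction of TG with WT it was 4 with only the libraries compared and 5 without a filter.

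Leaving out 1 library gave counts of 8 for RA in TG, 0 for RA in KO-labelled cells, 2 to 7 for RA in WT, 1 for KO-labelled against WT without RA and 0 to 1 with RA. It gave 1 to 2 for TG against WT without RA, 0 to 4 with RA, and 0 and 4 to 6 for the interactions of KO-labelled and TG with WT.

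Those 12 sign changes came only from leaving out 1 library, in genes not called. The range was −0.79 to 0.15 for S100a4 with RA in WT, for KO-labelled against WT without RA −0.56 to 0.38 for S100a4, −0.19 to 0.094 for S100a11 and −0.17 to 0.0023 for Anxa6, and with RA −0.14 to 0.50 for Vim, −0.46 to 0.11 for Timp1 and −0.61 to 0.083 for S100a4. For TG against WT it was −0.82 to 0.12 for S100a4 without RA, and with RA −0.45 to 0.24 for Lgals3, −0.58 to 0.11 for S100a4 and −0.71 to 0.047 for S100a6.

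Deviations of same-numbered libraries from their group means correlated at 0.147 to 0.327 between the doses of a genotype and at 0.0035 to 0.206 between genotypes. The labels tie the numbers to no animal or batch, and a comparison has only 2 of each. Sex, however, followed the number in TG cells at both doses. Class II marker sums of replicates 1 and 2 were 26.0 and 165 FPKM in WT cells with RA, and 23.7 and 157 FPKM without RA. The main fit took no account of pairs, and what same-numbered libraries share was not tested. With the replicate number as a block, counts were 8 for RA in TG, 2 for RA in KO-labelled cells (Vim and Lgals3), 7 for RA in WT (adding Timp1 and S100a6), 4 for KO-labelled against WT without RA (adding Timp1, Lgals1 and Vim) and 1 with RA, 6 for TG against WT without RA (adding Timp1 and Anxa2) and 4 with RA, and 0 and 6 for the interactions.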
